A study of Arabidopsis thaliana with 6 samples.

Results

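Chromatin immunoprecipitation with anti-GFP beads gave 8112 pooled peaks of the DELLA protein RGA in Arabidopsis inflorescence apices, and 188 of them (2.32%) lay around the centromeres. A peak was counted there when its summit fell within 2 Mb of a fixed point on its chromosome (TAIR10 build), at 15.1 Mb on chromosome 1, 3.6 Mb on chromosome 2, 13.6 Mb on chromosome 3, 3.95 Mb on chromosome 4 and 11.7 Mb on chromosome 5. The other 7924 pooled peaks lay on the chromosome arms. The position of a summit alone chose the members from the pooled peaks, so no measured enrichment entered the choice beyond the call of the peak. The RGA-GFP plants (RGAp:GFP-rga-delta17, 3 libraries) were of the Landsberg-erecta accession and carried a form of RGA that does not respond to gibberellin, tagged with GFP under the promoter of RGA itself. Wild type plants (3 libraries) were untransformed Landsberg-erecta, had no GFP epitope and went through the same anti-GFP precipitation. TAIR10 was assembled from the Columbia accession, not from Landsberg-erecta. The labels call the replicates biological, each made from fresh apices taken by weight, and do not say whether the tagged plants were 1 line. In apices made of many cell types, a peak used by few cells and a peak used weakly by many cells cannot be told apart.

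DELLA proteins are nuclear repressors of growth that gibberellin marks for destruction. They do not hold DNA by a domain of their own but reach it through the transcription factors they bind. The chromatin on both sides of an Arabidopsis centromere is dense heterochromatin, rich in transposons, pseudogenes and tandem satellite repeats and poor in active genes. The assembly leaves most of the satellite arrays out, so short reads from them pile up on the copies that it does hold. Close to the centromere of chromosome 2 lies a copy of the mitochondrial genome, whose reads are hard to separate from those of the organelle.

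The single libraries kept between 14644122 and 16745139 tags in the RGA-GFP group and between 3999159 and 10014730 in the wild type group, after the authors had kept 1 tag per position. RGA-GFP lists held 9343 to 11116 peaks and wild type lists 285 to 972. The fold printed for a peak is the authors' own ratio of the summit pileup to a local background. In a single list that background is the library's own, and in the pooled list it comes from the combined wild type libraries, so the folds of both kinds of list are different ratios.

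The windows were poor in pooled peaks. They made up 16.8% of the length of the chromosomes and held 9.40 pooled peaks per Mb, against 79.9 per Mb on the arms, a density 8.50 times lower. They held 1317 protein-coding genes, 4.80% of those annotated, and 3018 pseudogenes, which made up 62.9% of their annotated genes against 5.51% on the arms. Counted per 100 protein-coding genes, there were 14.3 pooled peaks in the windows and 30.3 on the arms. With all members counted, the windows had 0.471 times the peaks of the arms per gene and 0.118 times per Mb. The count per gene takes in many members away from genes. Only 49.5% of members lay in a gene window of the authors' deposited table (described below), against 94.4% of arm peaks. That table lists almost no pseudogenes. The share of protein-coding genes with a pooled peak was 6.91% in the windows and 30.9% on the arms. Chromosome 1 held 57 members, chromosome 4 held 47, chromosomes 2 and 3 held 30 each and chromosome 5 held 24.

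Where a peak was called, its height in the windows was close to that on the arms. The median pooled fold of the members was 1.72 (quartiles 1.60 and 1.90), against 1.70 on the arms (quartiles 1.57 and 1.87). The median summit pileup was 133 extended tags in the windows and 138 on the arms, and the median length was 456 bp against 479 bp. A fold of at least 2 was reached by 26 members (13.8%), against 14.4% of all pooled peaks. A length of 1000 bp or more was reached by 16 members (8.51%), against 7.85% of all pooled peaks. These are descriptions of 1 pooled list, in which peaks are not replicates. In the single lists the difference could be set against the libraries. The median fold in the windows was 2.08 in RGA-GFP replicate 1, 1.98 in replicate 2 and 1.97 in replicate 3, and on the arms it was 2.13, 2.04 and 1.95. Windows were thus lower in replicates 1 and 2 and higher in replicate 3, with a mean difference of -0.03 ± 0.04 (SD, n = 3; exact sign-flip test over 3 libraries, two-sided, p = 0.5, adjusted p = 1; the smallest p the design allows is 0.25).

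The single RGA-GFP lists held the members in shares close to those of arm peaks. Of the 188 members, 163 overlapped a peak of replicate 1, 172 of replicate 2 and 158 of replicate 3. As shares these were 86.7%, 91.5% and 84.0%, against 88.5%, 90.5% and 82.9% of arm peaks, a mean difference of 0.11 percentage points ± 1.64 (SD, n = 3; exact sign-flip test, two-sided, p = 1, adjusted p = 1). All 3 RGA-GFP lists held 140 members (74.5%), against 77.4% of all pooled peaks. None of the 3 held 7 members, with pooled folds of 1.45 to 1.83, and 5 of these 7 sat in dense clusters described further on. Among the 140, the coefficient of variation of the 3 single-list folds had a median of 8.34%, against 9.26% for arm peaks found in all 3 lists. Only 4 members (2.13%) overlapped a peak of any wild type list, against 6.29% of all pooled peaks.

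**Figure D1:**
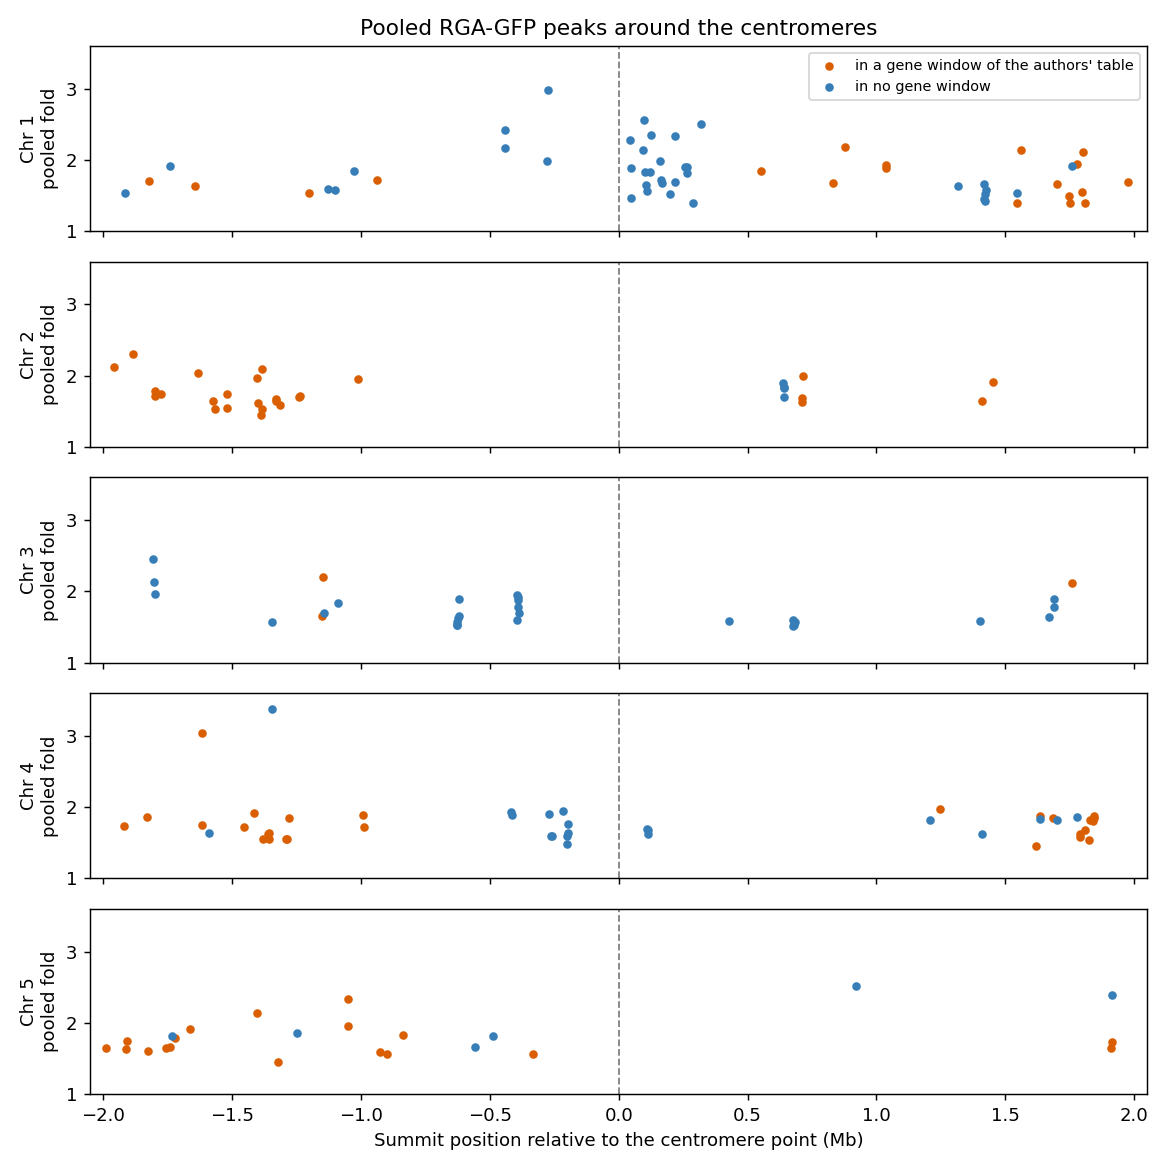
Pooled fold (y axis, authors' ratio against the combined wild type) of each of the 188 members by its summit position relative to the centromere point of its chromosome (x axis, Mb). Points are single peaks, coloured by whether they lie in a gene window of the authors' deposited table; most members within 0.5 Mb of a centre point lie in none, and chromosome 1 holds 21 of them just right of its point.

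The members fell into 2 kinds by their place. Gene windows of the authors' deposited table, which run from up to 3000 bp upstream to 1500 bp downstream of a coding sequence, held 93 members (49.5%), while they held 94.4% of arm peaks. The other 95 members (50.5%) lay in no gene window. That table listed 0 of 2760 pseudogenes in the windows and 1 of 1157 on the arms. It listed 0 of the transcribed pseudogenes, 258 in the windows and 668 on the arms. A window peak at a pseudogene could thus lie in a gene window only through a neighbouring gene. The split by gene window is therefore partly set by what the table lists. The summit lay inside an annotated pseudogene, a class that takes in many remains of transposons, for 39 members (20.7%), against 57 arm peaks (0.719%). The windows held 3018 annotated pseudogenes and the arms 1825. The arms thus had more such summits on fewer pseudogenes. Per annotated pseudogene the count of summits was therefore lower in the windows, although the share of peaks was higher. The kinds had median pooled folds of 1.71 inside gene windows and 1.79 outside them, and were in all 3 RGA-GFP lists in 68 of 93 and 72 of 95 cases. The place changed with distance. Beyond 0.5 Mb from the centre point, 92 members (65.2%) lay in a gene window, and within 0.5 Mb 1 of 47 did (2.13%).

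Protein-coding genes of the windows carried a pooled peak less often than those of the arms. The authors' deposited table gave a pooled peak to 91 of 1317 genes in the windows (6.91%, 95% exact Clopper-Pearson interval 5.60 to 8.42, counting error only) and to 8065 of 26127 on the arms (30.9%). Over all 27444 genes the share was 29.7%. It was higher farther out, from 0.515% of 194 genes within 0.5 Mb to 5.73% of 192 genes at 0.5 to 1 Mb, 8.53% of 387 at 1 to 1.5 Mb and 8.46% of 544 at 1.5 to 2 Mb. Past the limit of the windows it went on, to 9.90% at 2 to 2.5 Mb, 14.9% at 2.5 to 3 Mb and 26.6% at 4.5 to 5 Mb. The limit of 2 Mb therefore fell on a slope and not on a step. The copy of the mitochondrial genome held 94 of the 194 innermost genes, and 0 of the 94 had a pooled peak (3 counts of 94, the limit that a count of 0 allows, are 3.19%). The chromosomes differed. On chromosome 3 the table gave a pooled peak to 1 of 191 genes (0.524%), while on the other chromosomes the share was 6.72% to 9.52%.

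**Figure D2:**
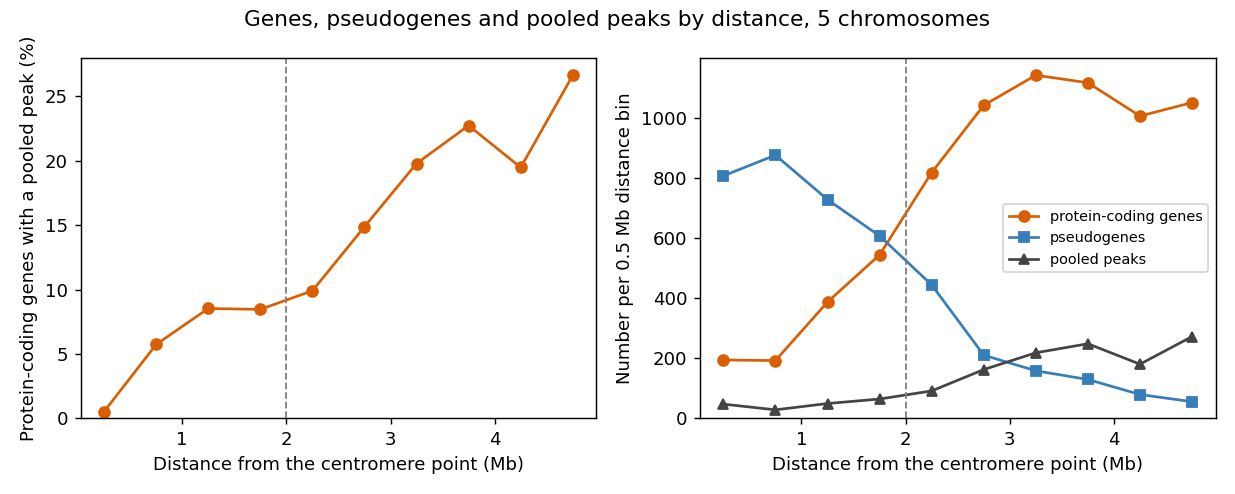
Left, share of protein-coding genes with a pooled peak (y axis, %) by distance from the centromere point (x axis, Mb, bins of 0.5 Mb over 5 chromosomes); right, the number of protein-coding genes, pseudogenes and pooled peaks in the same bins. The share starts at 0.515% and is 8.46% in the last bin inside the dashed line at 2 Mb, while pseudogenes number 807 in the first bin and 607 in the fourth.

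The 15 highest members found in every RGA-GFP list and overlapping no wild type peak had pooled folds of 2.20 to 3.38. Of the 15, 11 lay in no gene window. The highest of all was chr4:2605909-2606844, 1344 kb left of the centre point, between AT4G05080 and AT4G05090. Its pooled fold was 3.38 and its single-list folds were 5.32, 4.93 and 4.68 in RGA-GFP replicates 1 to 3 (mean 4.98 ± 0.32, SD, n = 3). The second was chr4:2333417-2333907 beside AT4G04630, a gene of unknown function, with a pooled fold of 3.04. Its single-list folds of 6.18, 4.97 and 4.14 (mean 5.10 ± 1.03) had the widest spread of the 15. Next came chr1:14824297-14824885, at 275 kb from the centre point of chromosome 1 between AT1G39070 and AT1G40083, with a pooled fold of 2.98 and single-list folds of 5.58, 5.25 and 5.53. All 3 libraries were above the median fold of a window peak at each of these sites. The sites were chosen by pooled fold, and pooled and single lists share reads, so this is no independent support. The top of chromosome 5 was chr5:12619690-12620202, inside the pseudogene AT5G33382, with a pooled fold of 2.52 and a mean of 3.85 ± 0.11. The top of chromosome 3 was chr3:11792635-11793015, between AT3G30160 and AT3G30165, with a pooled fold of 2.45 and a mean of 3.47 ± 0.53.

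**Figure D3:**
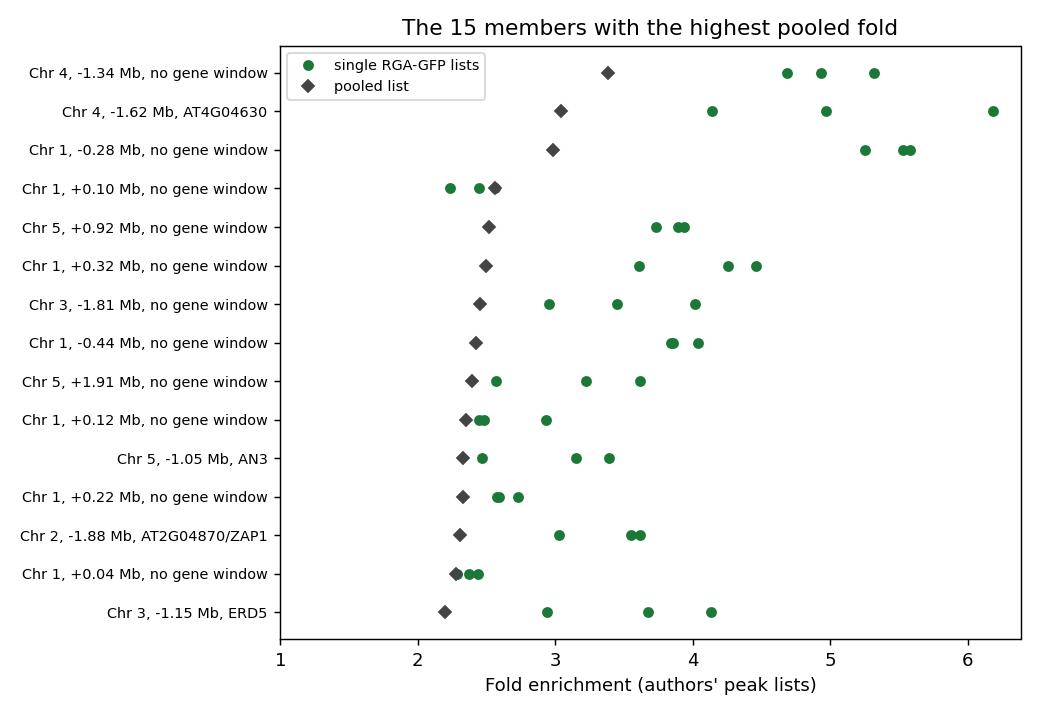
Fold enrichment (x axis) of the 15 highest members by pooled fold among those in every RGA-GFP list and overlapping no wild type peak. Circles are the 3 single RGA-GFP lists (fold over the library's own background) and diamonds the pooled list (fold over the combined wild type). Rows give chromosome, distance from the centre point and gene windows; the single-list folds run from 2.24 to 6.18.

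Growth regulators of the inflorescence were among the genes with a member. AN3, the coactivator that works with growth-regulating factors to keep leaf and flower cells dividing, held 2 members on chromosome 5. The stronger, chr5:10648557-10649060, had a pooled fold of 2.33 and single-list folds of 3.39, 3.15 and 2.46 (mean 3.0 ± 0.48). The weaker, chr5:10649793-10650127, had a pooled fold of 1.95 and single-list folds of 2.85, 2.47 and 2.16. Replicate 1 was highest and replicate 3 lowest at both, an order not particular to AN3. Of the 140 members in all 3 lists, 69 were highest in replicate 1 and 80 were lowest in replicate 3. MIR396b, a microRNA gene whose product targets the messages of growth-regulating factors, also held 2 members. The peak chr5:13612506-13612891 had a pooled fold of 1.73 and single-list folds of 3.45, 3.52 and 2.97 (mean 3.32 ± 0.30), and chr5:13611000-13611394 had a pooled fold of 1.64 and was in the lists of replicates 1 and 2 only. Another member, chr5:13614074-13614490, lay between the same protein-coding genes, AT5G35405 and SOS2, in no gene window, with a pooled fold of 2.39 and single-list folds of 3.61, 3.22 and 2.57. KNAT1, a homeobox gene that keeps the shoot meristem undetermined, was the left neighbour of chr4:5155421-5155857, whose pooled fold was 1.82 and whose single-list folds were 3.67, 3.21 and 2.29. That peak fell outside the KNAT1 window, and the authors' deposited table gave KNAT1 no pooled peak.

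Regulators and hormone genes followed. The GRAS gene AT4G08250, of the family to which DELLA proteins belong, shared the window of chr4:5196191-5196853 with AT4G08240, at a pooled fold of 1.97 and a single-list mean of 2.73 ± 0.24. ZAP1, a WRKY transcription factor, and AT2G04870 shared chr2:1717485-1718054, the top of chromosome 2, at a pooled fold of 2.30 and a mean of 3.40 ± 0.32. BZIP60, a factor of the unfolded protein response, had a member on either side, at pooled folds of 1.92 and 1.88. OPR3, an enzyme of jasmonate synthesis, had a pair of members at pooled folds of 1.71 and 1.70, both in all 3 RGA-GFP lists. GA20OX5, CYCA1;1 and MCM5, a gibberellin oxidase, an A-type cyclin and a replication factor, lay in the windows and had no pooled peak in the authors' deposited table. Neither of the windows' 2 cell cycle genes had a pooled peak, where 6.91% of all protein-coding genes did, so nothing is read from that count.

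Photosynthesis genes made up the largest named group in the windows. All 7 that lay there had a pooled peak in the authors' deposited table, and 20 of 21 such genes on the arms did. Over all protein-coding genes the shares were 6.91% in the windows, 30.9% on the arms and 29.7% together. For PSBX, a small photosystem II subunit, the member chr2:2587209-2588983 was 1775 bp long and reached into the windows of RPA1A and VPS2.1. Its pooled fold was 1.96, with single-list folds of 2.25, 3.17 and 2.82. RbcX1, an assembly factor of Rubisco, had a member with a pooled fold of 1.86 and single-list folds of 4.06, 3.67 and 2.89 (mean 3.54 ± 0.60). PSBQ-2, of the oxygen-evolving complex, stood at a pooled fold of 1.86, LHCB2.2 and LHCB2.1, light-harvesting proteins, at 1.78 and 1.75, and PGR5, of cyclic electron flow, at 1.74. LHCB2.1 and LHCB2.2 are near-identical copies, so reads could be shared between them and their folds are uncertain. CH1, which makes chlorophyll b, was lowest, with members at pooled folds of 1.49 and 1.40. Over the 8 gene lists, 170 genes were matched, 15 lay in the windows and 11 of these had a pooled peak, against 122 of 155 (78.7%) on the arms. The lists were chosen with results of these data known, so the counts describe the lists and support nothing further.

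Other named genes had roles in metabolism and in chromatin. ERD5, proline dehydrogenase, had the highest member in a gene window on chromosome 3, chr3:12453694-12454075, with a pooled fold of 2.20 and single-list folds of 4.13, 3.67 and 2.94. GLR3.3, a glutamate receptor-like channel, and PMI1, a factor of plastid movement, shared a member with a pooled fold of 2.18. NIA2, nitrate reductase, held a member of 1306 bp at a pooled fold of 1.71. HTA7, a histone H2A variant of heterochromatin, and RECQSIM, a helicase, shared a member at a pooled fold of 1.75 that was in all 3 RGA-GFP lists.

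The 4 members that overlapped wild type peaks lay at 3 genes. At UBQ11, a polyubiquitin gene with similar copies, chr4:2588595-2589240 had single-list folds of 3.89, 3.42 and 3.56 in RGA-GFP and 2.65, 2.37 and 2.60 in wild type. It was the only member found in all 6 single lists, and the groups did not overlap there. Of the 87 merged sites in all 6 lists, 1 overlapped a pooled peak. A pooled peak is called where RGA-GFP exceeds the combined wild type, so the call itself favours higher RGA-GFP folds at a member. At EXO, a brassinosteroid-responsive gene, chr4:5738770-5739208 had folds of 4.48, 4.78 and 3.89 in RGA-GFP and 2.36 in wild type replicate 1, and chr4:5740322-5741298 had 2.65, 2.99 and 2.82 against 1.92 in the same library. At ERD5, chr3:12450145-12450910 had 3.59, 3.17 and 2.82 against 2.85 in wild type replicate 1, so there the groups overlapped. Against the combined wild type the pooled folds of these 4 were between 1.58 and 1.66.

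Beside the genes, many members stood in runs. Taking 4 or more pooled peaks with gaps of at most 10 kb as a cluster, 7 clusters held 34 members (18.1%), while 59.1% of all pooled peaks stood in such clusters, 4762 of them on the arms. None of the 34 lay in a gene window, and 20 had their summit in a pseudogene, a class almost absent from the authors' deposited table. The longest runs had 6 members each, at chr3:12971035-12981585 over AT3G31980 and its neighbours and at chr3:13205421-13212668 over AT3G32230 and AT3G32240, with median pooled folds of 1.60 and 1.84. The single pseudogene AT2G10780 held all 4 members of chr2:4238035-4243061, at pooled folds of 1.70 to 1.90, and all 4 were in all 3 RGA-GFP lists. AT4G06628 held a run of 4 at chr4:3750530-3754287, of which 2 were in all 3 lists. Over the 7 clusters 21 of 34 members were in all 3 RGA-GFP lists. Copies of such repeats can share reads, and how reads with several matches were placed is not given in the sources used here, so which copy was bound is uncertain. The highest members inside pseudogenes were AT5G33382 at a pooled fold of 2.52, AT4G06620 and AT3G32230 at 1.95 each, AT4G06572 at 1.93 and AT1G44510 at 1.92, and all 5 were in every RGA-GFP list. No summit lay in a tRNA or rRNA gene (0 of 188, which by the same rule of 3 counts allows a share of up to 1.60%). The windows held only 30 tRNA and 2 rRNA genes. By gene window, the authors' deposited table gave a pooled peak to 0 of these 30 tRNA genes and to 172 of 595 on the arms (28.9%).

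Chromosome 1 had the most members within 0.5 Mb of its centre point, 25, while its arms held 80.5 pooled peaks per Mb. Right of its centre point, 21 members stood between 44.5 and 321 kb from it, within a span of 278 kb, and none lay in a gene window. Their pooled folds were 1.39 to 2.56 with a median of 1.83, and 19 of the 21 were in all 3 RGA-GFP lists. None overlapped a wild type peak. The longest member of all, chr1:15198136-15201455, was 3320 bp long and had a pooled fold of 2.56, with single-list folds of 2.45, 2.56 and 2.24 (mean 2.41 ± 0.16). Others were 2077 bp (chr1:15223197-15225273, pooled fold 2.35) and 2205 bp long (chr1:15319223-15321427, pooled fold 2.33). The mean single-list folds of the latter pair were 2.62 ± 0.27 and 2.63 ± 0.08, close to their pooled folds. Left of the point only 4 members lay within 0.5 Mb, at pooled folds of 1.98 to 2.98. On the other chromosomes the nearest members were farther out or fewer. Chromosome 4 had 8 members within 0.25 Mb, all in no gene window, and chromosomes 2, 3 and 5 had none. The member nearest the point was 638 kb away on chromosome 2, 388 kb on chromosome 3, 110 kb on chromosome 4 and 333 kb on chromosome 5.

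Peaks just inside and just outside the limit of the windows had folds in overlapping ranges. On the 10 sides the outermost members, 1.45 to 1.99 Mb from their point, had pooled folds of 1.53 to 2.45 with a median of 1.88. The first peaks beyond, at 2.02 to 2.42 Mb, had folds of 1.49 to 2.74 with a median of 1.78.

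The single lists, called without a control, gave another picture of the same windows. RGA-GFP lists had 469, 467 and 435 peaks there and wild type lists 236, 171 and 182. As a share of each list this was 4.41%, 4.20% and 4.66% in RGA-GFP and 24.3%, 60.0% and 34.5% in wild type. The groups did not overlap, with means of 4.42% ± 0.23 and 39.6% ± 18.4 (SD, n = 3 each), a difference of -35.2 percentage points (two-sided exact permutation p = 0.1, which is the lowest value 3 libraries a group allow, adjusted p = 0.3 over 3 tests). Per 1000000 tags the windows held 32.0, 29.7 and 26.0 peaks in RGA-GFP and 23.6, 19.4 and 45.5 in wild type. There the groups overlapped, with means of 29.2 ± 3.05 and 29.5 ± 14 (SD, n = 3 each; exact permutation test, p = 1, adjusted p = 1), and the highest value came from wild type replicate 3, the library with the fewest tags. On the arms the counts per 1000000 tags were 694, 678 and 532 in RGA-GFP and 73.5, 12.9 and 86.3 in wild type. The groups did not overlap in these arm counts. Depth differed between the groups, and its part in these counts was not tested beyond scaling by tags. The difference between the windows' and the arms' median fold was -0.03 ± 0.04 in RGA-GFP and -0.01 ± 0.10 in wild type (SD, n = 3 each; exact permutation test, p = 1, adjusted p = 1).

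**Figure D4:**
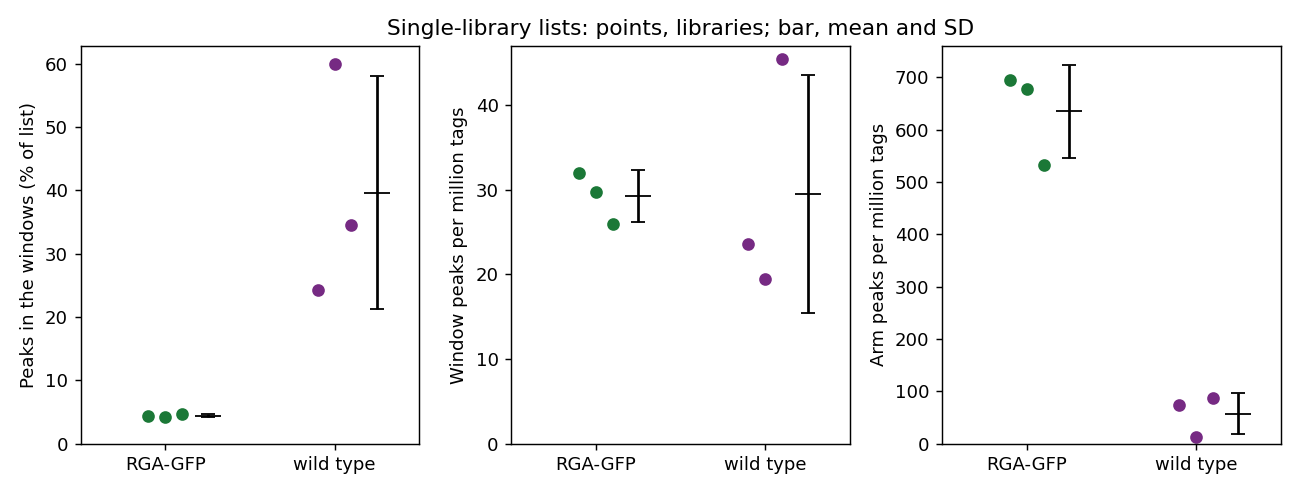
Peaks in the windows as a share of each single list (left), per 1000000 tags (middle), and arm peaks per 1000000 tags (right); points are the 3 libraries of each group, bars the mean and SD. Wild type lists had 24.3% to 60.0% of their peaks in the windows against 4.20% to 4.66% in RGA-GFP, while the window counts per 1000000 tags overlapped.

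Most window peaks of the single lists were not members. Of those in the RGA-GFP lists, 35.2%, 37.5% and 36.1% overlapped a pooled peak, against 67.9%, 66.3% and 73.4% on the arms. The mean difference was -33.0 percentage points ± 4.26 (SD, n = 3; exact sign-flip test, p = 0.25, the smallest this design allows). Overlap with a wild type peak went the other way, at 31.3%, 30.0% and 32.9% in the windows and 7.38%, 7.04% and 8.30% on the arms (difference 23.8 percentage points ± 0.83, exact sign-flip p = 0.25). Of the wild type peaks, 54.2%, 59.1% and 61.5% in the windows were in all 3 RGA-GFP lists, against 87.4%, 73.7% and 75.7% on the arms (difference -20.6 percentage points ± 10.8, exact sign-flip p = 0.25). The adjusted p over these 3 tests was 0.25 for each. These comparisons were chosen after their values were seen. Merging the 6 lists gave 662 sites in the windows. All 6 lists shared 87 of them, and 1 of the 87, at UBQ11, overlapped a pooled peak. Peaks of both groups were in 149 sites, the 87 among them, and 8 of the 149 overlapped a pooled peak. Merging can join a member to a wild type peak that it does not itself touch. Another 201 sites were in every RGA-GFP list without a wild type peak, and 126 of these (62.7%) overlapped a pooled peak. A further 105 sites came from wild type lists alone, and 0 of these overlapped a pooled peak. The pooled list was called against the combined wild type, so the call itself disfavours sites with wild type signal. The contrast between these classes of sites is therefore no separate result.

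Inside the windows, the sites of the single lists were densest next to the centre points. Within 0.25 Mb of a centre point lay 175, 164 and 164 peaks in RGA-GFP and 121, 91 and 96 in wild type, against 24 pooled peaks. For RGA-GFP this was 70.0, 65.6 and 65.6 peaks per Mb, below the densities of 103, 107 and 89.9 on the arms, and for wild type it was 48.4, 36.4 and 38.4, above the 7.42, 1.15 and 3.48 on the arms. From 1.5 to 2 Mb away the same lists had 100, 97 and 78 peaks in RGA-GFP and 16, 11 and 11 in wild type. RGA-GFP counts therefore had a minimum near 1 Mb and climbed again towards the arms, while wild type lists had 21 peaks or fewer in any bin of 0.25 Mb from 0.75 to 4 Mb. The chromosomes did not behave alike. On chromosome 1 the innermost 0.25 Mb on the right held 60, 50 and 55 peaks in RGA-GFP and 13, 1 and 3 in wild type. On chromosome 3 the order was the reverse, with 3, 2 and 2 in RGA-GFP and 26, 20 and 19 in wild type. On both sides together, chromosome 1 had a mean of 61.0 ± 5.0 against 8.33 ± 8.39 peaks and chromosome 3 had 6.0 ± 1.73 against 27.3 ± 4.93 (SD, n = 3 each). The groups did not overlap on chromosomes 1 to 4 (exact permutation p = 0.1, adjusted p = 0.125 over 5 chromosomes) and overlapped on chromosome 5, at 31.3 ± 1.53 and 29.0 ± 2.00 (exact permutation p = 0.3). These 5 tests too were chosen after their values were seen. The counts within 0.25 Mb were not scaled by tags, and each RGA-GFP library kept more tags than any wild type library. The part of depth in whether the groups overlapped was not tested. Of the 33 sites in all 3 wild type lists and in no RGA-GFP list, 20 lay on chromosome 3.

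**Figure D5:**
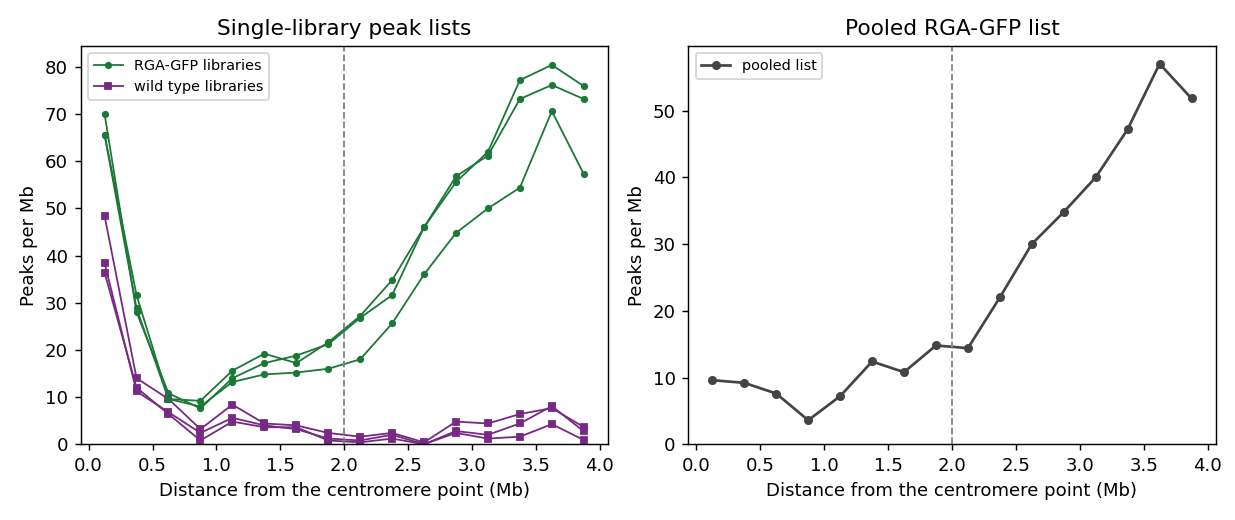
Peaks per Mb (y axis) by distance from the centromere point (x axis, Mb, bins of 0.25 Mb over 5 chromosomes) in the 6 single lists (left) and in the pooled list (right); the dashed line marks 2 Mb. Within 0.25 Mb of the centre point the RGA-GFP lists have 65.6 to 70.0 peaks per Mb, are below 10 at 0.75 to 1 Mb and are all above their innermost value at 3.5 to 3.75 Mb; the wild type lists are highest in the innermost bin, at 36.4 to 48.4, and the pooled list has 9.60 there.

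The highest pileups of the windows were common to both groups. A pileup of 500 extended tags or more, of at most 600 possible with 1 tag per position, was reached at 19 sites in at least 1 library. Of the 19, 18 were in all 6 lists, none overlapped a member, and 9 lay on chromosome 2. Beside the ribosomal RNA genes of chromosome 3, chr3:14201073-14205152 reached 600 in every library. At chr3:13588815-13592614, 9.29 kb from the centre point, the pileup was 598, 595 and 598 in RGA-GFP and 600, 598 and 591 in wild type. The site chr2:2937979-2939027, at the pseudogene AT2G07080, had the highest folds of the RGA-GFP lists within the windows, 9.86, 9.65 and 9.06, and 11.3, 11.2 and 13.6 in wild type. Wild type was higher there in all 3 libraries. The copy of the mitochondrial genome held 29, 32 and 29 peaks in RGA-GFP and 9, 12 and 17 in wild type, and no member. These counts were not scaled by tags, of which every RGA-GFP library kept more than any wild type library.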

How the data were processed

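Anti-GFP ChIP-seq was done on inflorescence apices fixed with 2% formaldehyde and a second crosslinker, with 50 bp single-end reads, in 3 RGA-GFP and 3 wild type biological replicates, grouped by their titles. Per the submitters' processing notes, Bowtie2, SAMtools and MACS2 2.0.10 were used on TAIR10; the placement of reads with several matches is not given in the sources used here. Per the file headers, the 6 libraries were called singly without a control (tags extended to 300 bp, q cutoff 0.05, 1 tag per position, background over 10000 bp), and the pooled list was called on 39204769 RGA-GFP against 21323289 wild type tags (background over 1000 and 10000 bp). The deposited pileup is a signal, the extended tags at the summit. The deposited fold is the authors' ratio of pileup to background, and significance is a deposited −log10 q-value from MACS. The authors' deposited gene table gives the pooled fold in each gene's window, with at least 50 bp of overlap.

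From these files, peaks were compared by overlap (1 bp), and gene positions came from RefSeq (assembly TAIR10.1), of which no coordinates are printed; 97.9% of the 13259 matched windows covered the RefSeq midpoint. Group tests were exact permutation tests, and tests within RGA-GFP were exact sign-flip tests over 3 libraries, with Benjamini-Hochberg adjustment over tests of a kind (Python 3.11.15, scipy 1.17.1). P-values measure the spread between these libraries. The window and overlap counts and the smallest p-values of both exact tests were checked on simulated data. Named peaks followed a rule. It took the 15 highest found in every RGA-GFP list and overlapping no wild type peak. It also took the top and the 2 nearest of each chromosome and those at the limits. Peaks overlapping wild type and those at listed genes or at pseudogenes were named too. Peaks at other named genes and the runs were chosen after their values were seen. Members and lists were chosen with earlier results of these data known. Sequences and promoter motifs are not analysed here.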

Additional observations from a re-analysis of the deposited data

How the results depend on the processing

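Of 46 values under alternatives other than leaving out a library, 30 counted as the same, 12 as moved and 4 as reversed. A tested value counted as the same when its sign held, whatever its size. No test crossed the threshold, which no design here could reach. An untested value counted as moved when it left its counting interval or library spread. Some tested values counted as the same changed much in size. The window share was -52.2 points in single lists with a −log10 q of at least 10. Recurrence was 3.59 points with 3 Mb. With windows of 1 Mb, members were 0.925% of pooled peaks, peaks per 100 genes were 0.654 times those of the arms, and the differences were -6.35 percentage points for overlap with wild type and -27.0 for genes with a peak. There the fold difference between groups reversed to 0.067 (exact permutation p = 0.6) and recurrence to -1.99 points (exact sign-flip p = 0.5). With 3 Mb, members were 5.44%, presence in all 3 lists differed by 3.25 points and genes with a peak by -22.0 points, and window peaks per 1000000 tags reversed to 21.5 more in RGA-GFP (exact permutation p = 0.2). With a −log10 q of at least 10, members were 1.95% of the pooled list, the ratio per gene was 0.395, the fold difference 0.11 and the difference in overlap with wild type -11.8 points; in the single lists the fold difference between groups reversed to 0.46 (exact permutation p = 0.2). Counting peaks that touch the gene itself, genes with a peak differed by -16.7 points. Leaving out clusters, chosen after seeing the data, took presence in all 3 lists from -3.03 to -6.22 points and the median pooled fold difference from 0.02 to 0.05. Leaving out the genes of the mitochondrial copy, also chosen then, gave -23.4 points for genes with a peak, against -24.0. The cause of these moves was not tested.

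Leaving out 1 library at a time gave -42.8 to -25.0 points for the window share, -5.29 to 7.76 for peaks per 1000000 tags (7.76 without wild type replicate 3), -0.048 to 0.037 for the fold difference between groups, -0.05 to -0.01 within RGA-GFP, -0.39 to 1.05 points for recurrence, -1.70 to -1.16 for presence in all lists and -4.18 to -1.53 for overlap with wild type (-1.53 without wild type replicate 1). At 87 shared sites the same-numbered deviations correlated at 0.08, 0.27 and -0.14, and those of other pairs at -0.34 to 0.18. Sites are not replicates, so these values cannot tell whether replicate numbers pair the libraries. With the replicate block the exact sign-flip p was 0.25 for the window share (-35.2 points), 1 for peaks per 1000000 tags (-0.249) and 1 for fold (-0.02). Promoter motifs were not run. Intervals cover counting error only.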
